A study of Mus musculus with 6 samples.

Results

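The meiosis and piRNA pathway genes are a set of 44 genes that work mainly in the germline, and 40 of them were measured, out of 17097 genes named on the arrays. A gene was counted as measured when at least 1 probe set carried its symbol alone, and of several, the one brightest on average over the 6 arrays stood for it. *Rpl10l*, *Slc25a31*, *Sycp1* and *Tdrd6* were listed but have no such probe set in this annotation and were not analysed here. The RNA came from E14tg2a, a mouse embryonic stem cell (ESC) line, with a doxycycline-inducible *Prdm14* cassette carried by the piggyBac transposon. The 6 arrays, 1 per condition, hold ESCs, epiblast-like cells (EpiLCs) 2 and 4 days after the start of induction (d2 EpiLCs and d4 EpiLCs), EpiLCs + PRDM14, and a d2 and a + PRDM14 culture labelled *Tet1*/*Tet2* KD. The 3 EpiLC arrays outside the KD carry a scramble short hairpin RNA, the KD is by short hairpin RNAs in 1 established line, and the label of the ESC array names no hairpin. The labels give serum and LIF as the medium of the ESC line, and the study's methods also describe ESCs kept with kinase inhibitors and LIF in N2B27, so which of these the ESC array had is not settled here. The d2 EpiLCs grew with activin A and bFGF in N2B27, and at day 2 the cells were replated in GK15 medium with doxycycline to switch on PRDM14 or without it. Time and medium therefore cannot be told apart between d2 EpiLCs and d4 EpiLCs. Between d2 EpiLCs and EpiLCs + PRDM14, PRDM14 cannot be told apart from time in culture, the medium and doxycycline. EpiLCs + PRDM14 and d4 EpiLCs share the medium but not the doxycycline. The labels give no day for the arrays with PRDM14.

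In meiosis, cohesin rings with germline subunits and axis proteins such as SYCP3 and HORMAD1 organise each chromosome, SPO11 cuts the DNA, DMC1 helps to repair the breaks on the homologous chromosome, and the synaptonemal complex zips the homologues together. PIWI proteins loaded with small piRNAs, together with tudor domain proteins, helicases and other partners, silence transposons in germ cells. Many of these genes have CpG-rich promoters that are kept silent in somatic cells by DNA methylation and by the E2F6-MGA-MAX form of polycomb complex, and several are nevertheless known to be transcribed in mouse ESCs.

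A level is given as the log2 signal of the probe set minus the median of its array, so 0 is the array median, and a difference is the log2 difference of 2 arrays on this scale. Levels of one gene can be set side by side between arrays, but the probe sets of different genes cannot be ranked by level. With a single array per condition there is no replicate check, and a gene was called higher or lower at 1.5-fold, a log2 difference of 0.585, without a p-value. The deposited medians were 5.07 in the arrays labelled KD and 5.28 to 5.29 in the others, a gap of 0.214 that was removed before any comparison. The KD-labelled arrays may come from a separate normalization run, which cannot be told apart from their label where they are set against scramble arrays. The targeted genes give little check of the labels. *Tet1* has no probe set in this annotation, and *Tet2* differed by 0.17 between the KD-labelled and the scramble d2 EpiLCs and by -0.54 between the arrays with PRDM14. The *Prdm14* probe set was at 1.67 in ESCs, -0.24 in d2 EpiLCs and -0.34 in EpiLCs + PRDM14, so it was not raised in the array named for PRDM14, and whether it covers the transgene transcript was not tested. All 6 markers of naive ESCs were higher in EpiLCs + PRDM14 than in d2 EpiLCs, and 5 of 6 markers of the primed epiblast were lower.

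Of 40 measured members, 25 lay above the array median in all 6 arrays, 4 in some of them, and 11 in none. The share below the median in every array was 27.5%, against 29.54% of all named genes. The 11 dim members were *Piwil2*, *Piwil4*, *Tdrd1*, *Tdrd5*, *Tdrd7*, *Brdt*, *Tex101*, *Hormad2*, *Sycp2*, *Msh4* and *Tex11*. Signals this dim may hold little of the gene's own RNA, and their differences are bounded by the background of the array. A level above the median does not by itself show that a gene is transcribed. *Prm1*, a protamine gene of spermatids (0.24 to 0.37), and *Gdf9*, a growth factor gene of oocytes (1.19 to 1.56), also lay above it in every array. Whether these genes are transcribed in these cells was not tested. Of 6 markers of spermatids, the haploid cells that follow meiosis, at most 2 lay above the median in any array, and their summed linear level, each gene's signal as a multiple of the array median, was between 3.73 and 4.01. Of the 6 oocyte markers, 1 to 3 lay above the median in any array. *Zp3* was the 1 of them called in any comparison. It was lower in EpiLCs + PRDM14 than in d2 EpiLCs (-1.34) and d4 EpiLCs (-0.81), against 1.91% and 2.17% of named genes. In the arrays labelled KD it was lower with PRDM14 than at day 2 (-0.64), against 2.53%.

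**Figure D1:**
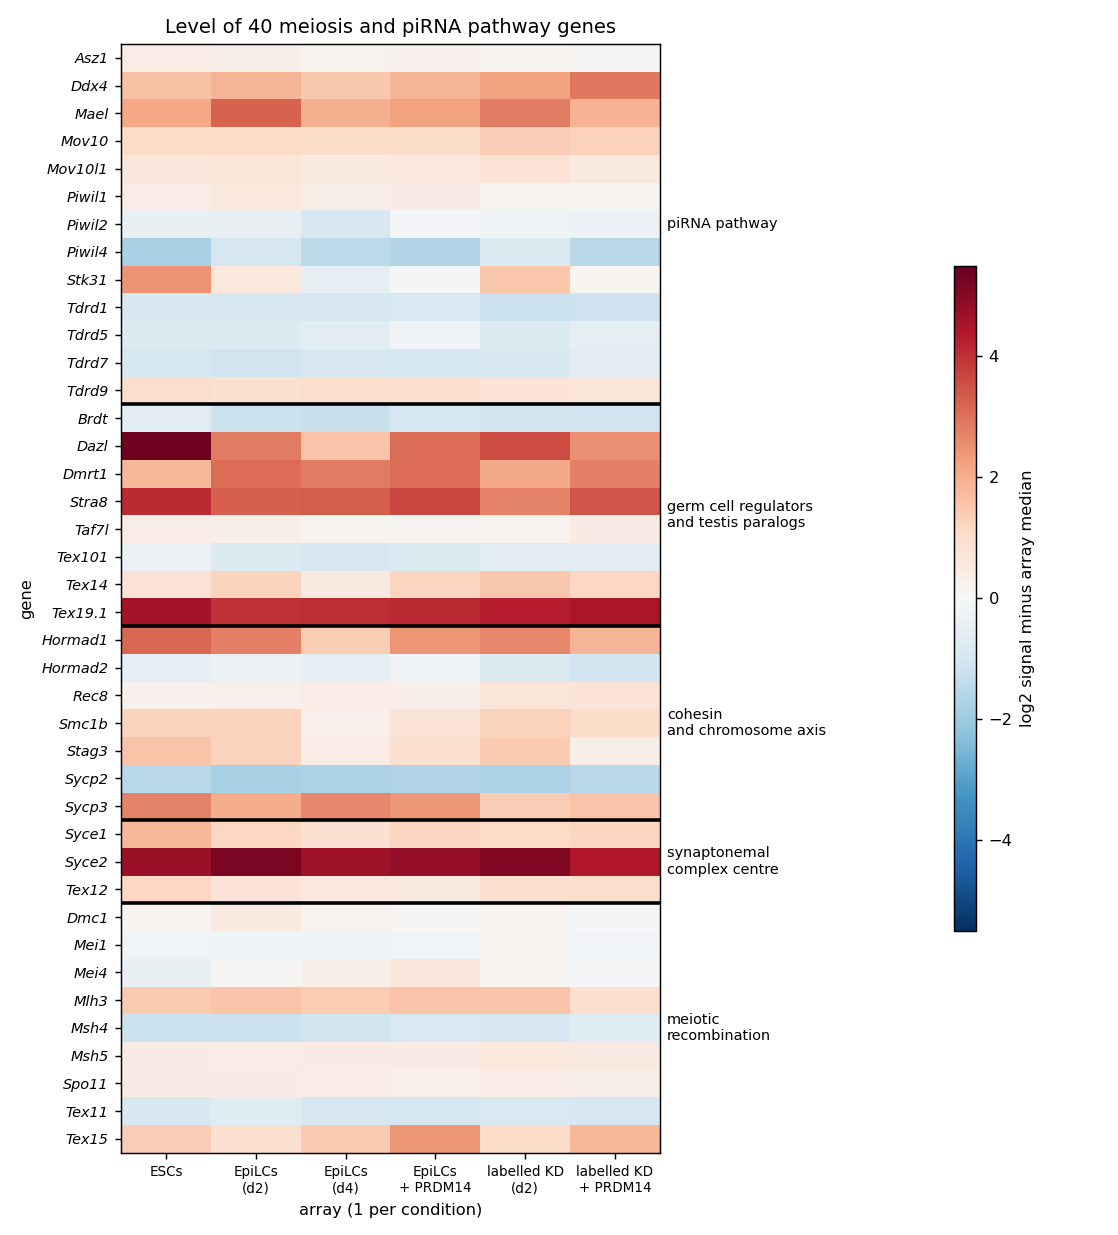
Heat map of the level of 40 meiosis and piRNA pathway genes (rows, grouped by role) on the 6 arrays (columns, 1 per condition). Colour is the log2 signal minus the array median, red above and blue below it, and a reader should compare colours within a row. *Dazl* and *Stk31* are deepest in ESCs, and 11 genes are blue in every column.

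The members, a list chosen with earlier results of these data known, varied more between arrays than the average gene. The median range over the 6 arrays, from the lowest to the highest level of a gene, was 0.64 for the members and 0.38 for all named genes. Among the 4 arrays outside the KD, 17 members (42.5%) had their highest level in ESCs, compared with 29.46% of named genes. In d4 EpiLCs, 19 members (47.5%) had their lowest level, compared with 27.48% of named genes, and 3 (7.5%) their highest, compared with 23.38%. The set thus leaned towards ESCs at the high end and towards d4 EpiLCs at the low end, as a description of these arrays.

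Some sequence features were more frequent in the promoters of the members than over all promoters. Whether such features entered the choice of genes is not known here. RefSeq promoters (GRCm38.p6, 250 bases before to 50 bases after the start) were matched by symbol for 38 of 44 members, giving 48 promoters. Their median number of CG dinucleotides was 19.5, against 7 over all 32851 promoters. The core of E2F sites, GCGGGA on either strand, was present in 39.58% of member promoters and in 19.98% of all. The E-box CACGTG, a palindrome bound by MAX dimers, was also in 39.58%, against 7.15% of all. Some genes have several promoter entries that overlap, as *Hormad1* does. Counted by gene, GCGGGA was in 17 of 38 members and 5959 of 27025 genes, and CACGTG in 16 and 2187. Among promoters with at least 13 CG, the whole number just below the lower quartile of the members (13.75), the shares for GCGGGA were close (50% of 38 member promoters and 43.42% of 12454), whereas those for CACGTG differed (47.37% and 11.16%). The motifs can overlap only at their end bases, and a match is a string of letters, not a bound site.

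The promoters shown are those of 4 members whose level differed by about 1.5-fold or more between EpiLCs + PRDM14 and d2 EpiLCs, or came just short of it, and that hold either motif. Capitals mark GCGGGA (or TCCCGC, the same site on the other strand) and CACGTG, and each is written 5′ to 3′ on the strand of the gene. *Mael* lies on the minus strand at chr1:166238695-166238994, with 24 CG, 2 GCGGGA and 1 CACGTG. *Stk31* lies on the plus strand at chr6:49395289-49395588, with 29 CG and 1 CACGTG. *Smc1b* lies on the minus strand at chr15:85131908-85132207, with 29 CG and 1 GCGGGA. *Tdrd5* lies on the minus strand at chr1:156303299-156303598, with 48 CG and 1 GCGGGA.
Mael: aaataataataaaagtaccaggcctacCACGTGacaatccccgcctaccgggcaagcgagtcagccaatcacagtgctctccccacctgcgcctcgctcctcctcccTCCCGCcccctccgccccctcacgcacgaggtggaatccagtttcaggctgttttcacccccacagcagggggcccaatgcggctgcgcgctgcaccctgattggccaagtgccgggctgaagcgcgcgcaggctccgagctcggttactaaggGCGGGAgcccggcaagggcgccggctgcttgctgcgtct
Stk31: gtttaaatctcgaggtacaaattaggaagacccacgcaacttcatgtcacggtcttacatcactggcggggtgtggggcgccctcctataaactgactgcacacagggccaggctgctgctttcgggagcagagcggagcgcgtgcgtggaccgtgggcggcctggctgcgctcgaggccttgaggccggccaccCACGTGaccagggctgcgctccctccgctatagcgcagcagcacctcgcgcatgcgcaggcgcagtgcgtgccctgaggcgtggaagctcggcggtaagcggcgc
Smc1b: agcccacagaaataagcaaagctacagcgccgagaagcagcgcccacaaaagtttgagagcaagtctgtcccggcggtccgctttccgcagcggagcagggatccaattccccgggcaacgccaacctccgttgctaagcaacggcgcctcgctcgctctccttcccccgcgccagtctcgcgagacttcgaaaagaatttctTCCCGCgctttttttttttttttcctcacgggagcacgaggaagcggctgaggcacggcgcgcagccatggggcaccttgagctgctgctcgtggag
Tdrd5: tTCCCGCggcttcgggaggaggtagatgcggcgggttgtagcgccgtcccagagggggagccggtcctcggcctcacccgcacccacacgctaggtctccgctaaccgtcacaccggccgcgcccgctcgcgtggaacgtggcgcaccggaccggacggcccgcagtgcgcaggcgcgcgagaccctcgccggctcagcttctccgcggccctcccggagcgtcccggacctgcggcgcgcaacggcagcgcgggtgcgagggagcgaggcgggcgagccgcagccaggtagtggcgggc
The promoters of *Piwil4* and *Mei4*, the other members of this kind with an entry, hold neither string of letters.

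With PRDM14 in the scramble arrays, 4 of 40 members (10%) were called, against 4.63% of all named genes. Between EpiLCs + PRDM14 and d2 EpiLCs, *Tex15* was the 1 member higher, against 2.72% of all named genes, and *Mael*, *Stk31* and *Piwil4* were the 3 lower (7.5%), against 1.91%. The median difference of the members was 0.00 and that of all named genes -0.01. *Tdrd5* (0.58) and *Smc1b* (-0.58) came just short of the threshold.

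ESCs and d2 EpiLCs differed at more of these genes. In ESCs, 7 members (17.5%) were higher, *Dazl*, *Stk31*, *Stra8*, *Syce1*, *Sycp3*, *Tex19.1* and *Brdt*, against 2.64% of named genes. Lower in ESCs were 3 members, *Dmrt1*, *Mael* and *Piwil4* (7.5%), against 2.35%. The median difference was 0.03 over members that went both ways, and 17 of 40 (42.5%) lay within 0.2 of 0, compared with 75.8% of named genes.

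From d2 EpiLCs to d4 EpiLCs the called members were mostly lower. Lower at day 4 were 7 members (17.5%), *Hormad1*, *Mael*, *Dazl*, *Stk31*, *Smc1b*, *Stag3* and *Tex14*, against 1.12% of named genes, and *Sycp3* was the 1 member higher (2.5%), against 2.18%. The median difference was -0.15, and 27 of 40 members (67.5%) lay below 0, while the median of all named genes was -0.01 and 52.6% of them lay below 0. All of these 7 genes have a promoter entry with 20 to 30 CG, and 6 of them (85.71%) hold GCGGGA or CACGTG, as do 24 of the 38 members with an entry (63.16%) and 27.5% of all 27025 genes with one. Among genes with at least 20 CG in a promoter, the share is 84.21% of 19 members and 56.69% of 7772 genes. The 7 genes were singled out after their values were seen. The array of scramble d2 EpiLCs is shared by this comparison and the preceding ones, so a gene that read high on it, as *Mael* did, is lower in all of them. Markers of other states differed in the same pair of arrays. Of 6 trophoblast markers, the keratin genes *Krt8* (2.09) and *Krt7* (1.19) were higher in d4 EpiLCs, the other four, *Cdx2*, *Elf5*, *Eomes* and *Hand1*, differed by -0.17 to 0.01, and the summed linear level was 28.7 against 13.3. *Elf5* lay below the median in every array. Of the primed epiblast markers *Otx2* was lower (-1.10) and *Zic2* higher (0.90), of the 2-cell-like markers *Tcstv1* was higher (1.07), and none of the 6 naive markers was called. The part of these markers in the members' differences was not tested.

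Against d4 EpiLCs, which share the medium, EpiLCs + PRDM14 had 5 members higher (12.5%), *Dazl*, *Hormad1*, *Tex15*, *Piwil2* and *Tex14*, against 1.86% of named genes. No member was lower by 1.5-fold, where 2.17% of named genes were. The median difference was 0.16, and 30 of 40 members (75%) lay above 0, whereas the median of all named genes was 0.00 and 50.6% of them lay above 0. *Krt8* was lower here by 1.39, with a summed trophoblast level of 16.3 in EpiLCs + PRDM14. This pair shares the d4 EpiLCs array with the one before, so a low or high reading of that array enters both.

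In the pair of arrays labelled KD, EpiLCs + PRDM14 minus d2 EpiLCs, 8 members (20%) were lower, *Stk31*, *Stag3*, *Dazl*, *Mael*, *Hormad1*, *Piwil4*, *Syce2* and *Mlh3*, against 2.53% of named genes. *Tex15*, *Stra8*, *Ddx4* and *Dmrt1* were higher (10%), against 2.12%. The median difference was -0.06. None of these arrays is in the scramble pair, and *Tex15* was higher and *Mael*, *Stk31* and *Piwil4* lower in both pairs (10% of the members), against 2.32% of named genes that passed 1.5-fold the same way in both. Both pairs set replated cells against d2 EpiLCs, so PRDM14 cannot be told apart from time in culture, the change of medium and doxycycline in either. No d4 array is labelled KD. All 7 members lower in d4 EpiLCs without PRDM14 also lay below 0 in the KD-labelled pair, where 5 were called lower. In that pair 24 of the 40 members (60%) and 53.2% of named genes lay below 0. In the scramble pair 2 of the 7 were called lower, and *Dazl* lay above 0 (0.23). The 7 were singled out after their values were seen. Opposite signs in these pairs were found for 14 members (35%) and for 38% of named genes.

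**Figure D2:**
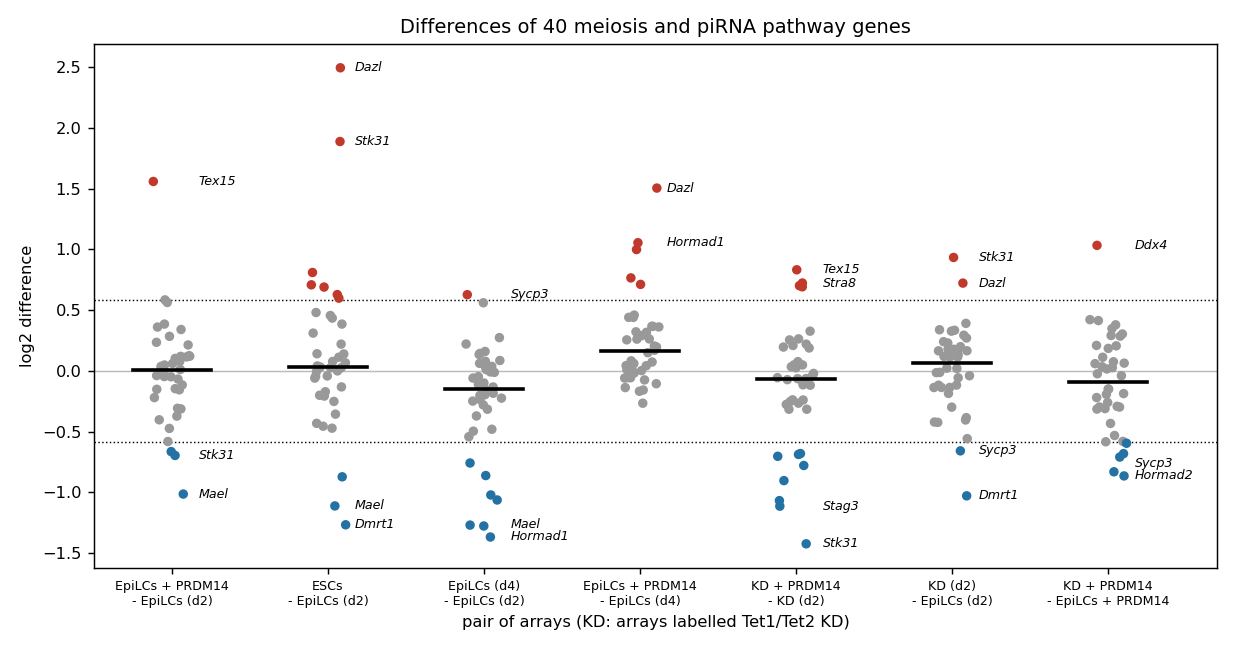
Log2 difference of each of the 40 members (points) in 7 pairs of arrays, with the median as a black bar and dotted lines at 1.5-fold. Red points are called higher and blue points lower; up to 2 genes in each direction are named. The blue points outnumber the red ones for d4 EpiLCs minus d2 EpiLCs (7 and 1), and for EpiLCs + PRDM14 minus d4 EpiLCs there are 5 red points and no blue one.

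Of 13 measured genes of the piRNA pathway, 3 were lower in EpiLCs + PRDM14 than in d2 EpiLCs, against 1.91% of named genes, and none was called higher. Against d4 EpiLCs none of the 3 was called, with *Mael* at 0.26, *Stk31* at 0.37 and *Piwil4* at -0.17. *Mael*, which encodes maelstrom, a protein of the germ granule needed for transposon silencing, read 2.12 in ESCs, 3.24 in d2 EpiLCs, 1.96 in d4 EpiLCs and 2.22 in EpiLCs + PRDM14, and 2.81 at day 2 and 1.91 with PRDM14 in the arrays labelled KD. The scramble d2 EpiLCs were thus the highest of all 6 arrays, and ESCs and EpiLCs + PRDM14 lay close to d4 EpiLCs. The differences with PRDM14 were -1.02 in the scramble pair (2.02-fold) and -0.90 in the KD-labelled pair (1.87-fold).

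*Stk31*, which encodes a tudor domain kinase of germ cells, was lower at each step from ESCs to d4 EpiLCs. It read 2.48 in ESCs, 0.59 in d2 EpiLCs, -0.48 in d4 EpiLCs and -0.11 in EpiLCs + PRDM14, and 1.52 and 0.10 in the arrays labelled KD at day 2 and with PRDM14. It was 3.71-fold higher in ESCs than in d2 EpiLCs and lower by 1.06 in d4 EpiLCs. The differences with PRDM14 were -0.70 in the scramble pair and -1.43 in the KD-labelled pair, so the array with PRDM14 did not approach the ESC level in either. A second probe set of *Stk31* gave 2.10 for ESCs minus d2 EpiLCs, -1.52 at day 4, and -0.78 and -1.63 with PRDM14. For EpiLCs + PRDM14 minus d4 EpiLCs, which share the medium, it gave 0.74, past the threshold. The probe set used here gave 0.37 in that comparison.

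*Piwil4*, which encodes MIWI2, the nuclear PIWI protein that guides DNA methylation to transposons in fetal germ cells, was dim throughout. Its levels were -1.80 in ESCs, -0.93 in d2 EpiLCs, -1.42 in d4 EpiLCs, -1.59 in EpiLCs + PRDM14, and -0.81 and -1.52 in the arrays labelled KD. The calls in this gene rest on 1 probe set, since another gave -0.06 and -0.23 with PRDM14 in the pairs.

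*Ddx4*, which encodes the germ cell helicase VASA, lay above the median in every array. Its levels were 1.62 in ESCs and 1.87 in both d2 EpiLCs and EpiLCs + PRDM14, with d4 EpiLCs 0.37 below them, and in the arrays labelled KD 2.20 at day 2 and 2.90 with PRDM14. The scramble arrays with and without PRDM14 differed by -0.01, and the pair labelled KD by 0.70.

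*Piwil2*, the gene of the PIWI protein MILI, lay below the median in every array, at -0.41 in ESCs and d2 EpiLCs, -0.89 in d4 EpiLCs and -0.13 in EpiLCs + PRDM14. On the KD-labelled arrays it was at -0.26 and -0.32. The d4 EpiLCs were its lowest array, and the call of 0.77 with PRDM14 is against that array. *Tdrd5*, a tudor domain gene, was at -0.76 in d2 EpiLCs and -0.17 in EpiLCs + PRDM14, below the median in both. It was called in no comparison, and neither were 7 further piRNA genes. *Piwil1*, the gene of the PIWI protein MIWI, lay between 0.15 and 0.60 over the arrays. *Mov10l1*, the helicase gene of piRNA precursor processing, lay between 0.54 and 0.80, and its broadly expressed relative *Mov10* between 0.99 and 1.35. *Asz1*, which encodes a mitochondrial partner of the pathway, lay between 0.05 and 0.42. Of the tudor domain genes, *Tdrd9* lay above the median, between 0.67 and 0.99, and *Tdrd1* (-1.20 to -0.85) and *Tdrd7* (-1.09 to -0.63) below it. Other probe sets of *Asz1* (0.79 for ESCs) and *Mov10* (0.66 with PRDM14 in the scramble pair) passed the threshold.

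The germ cell regulators held the gene with the widest range of the set. *Dazl*, which encodes an RNA-binding protein that licenses germ cells for gametogenesis, read 5.34 in ESCs, 2.84 in d2 EpiLCs, 1.57 in d4 EpiLCs and 3.08 in EpiLCs + PRDM14, and 3.57 and 2.50 in the arrays labelled KD at day 2 and with PRDM14. ESCs stood above every EpiLC array, and d4 EpiLCs below them. The level was 5.65-fold higher in ESCs than in d2 EpiLCs, 2.41-fold lower in d4 EpiLCs, and 2.84-fold higher in EpiLCs + PRDM14 than in d4 EpiLCs. With PRDM14 it differed from day 2 by 0.23 in the scramble pair and by -1.07 in the KD-labelled pair. A second probe set gave 2.36 for ESCs, -1.36 for d4 EpiLCs and 0.09 with PRDM14, but -0.28 in the KD-labelled pair, so the lower level in that pair rests on 1 probe set.

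*Stra8*, the retinoic acid target that starts meiosis, was at 4.12 in ESCs, 3.31 in d2 EpiLCs, 3.33 in d4 EpiLCs and 3.69 in EpiLCs + PRDM14. On the KD-labelled arrays it was at 2.75 and 3.47, a difference of 0.72 against 0.39 in the scramble pair. *Dmrt1*, a transcription factor gene of the testis, ran the other way from *Dazl* between ESCs and EpiLCs. It was at 1.82 in ESCs, 3.09 in d2 EpiLCs, 2.86 in d4 EpiLCs and 3.05 in EpiLCs + PRDM14, and at 2.06 and 2.76 in the arrays labelled KD. The KD-labelled d2 EpiLCs thus lay nearer to ESCs than to their scramble counterpart, by a difference of -1.03 from the latter.

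*Tex19.1*, a gene of germ and pluripotent cells that restrains transposons, was between 3.97 and 4.59 in all arrays, highest in ESCs (0.63 above d2 EpiLCs). *Tex14*, needed for the bridges between germ cells, dipped in d4 EpiLCs, with 1.23 in d2 EpiLCs, 0.47 in d4 EpiLCs and 1.19 in EpiLCs + PRDM14, while ESCs were at 0.80 and the KD-labelled arrays at 1.46 and 1.15. The d4 array was again the lowest. *Brdt*, the testis bromodomain gene, was dim in every array, and its call in ESCs (0.60) came from -0.58 against -1.18, while another probe set gave 0.17. *Taf7l*, a germ cell paralog of a TFIID subunit gene (0.13 to 0.43), and *Tex101*, a testis surface protein gene (-0.94 to -0.32), were within 1.5-fold in all comparisons. Of the 8 measured genes of this group, 4 were higher in ESCs than in d2 EpiLCs, against 2.64% of named genes. None was called with PRDM14 in the scramble pair, against 4.63% of named genes.

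Of 7 cohesin and chromosome axis genes, *Hormad1*, *Smc1b* and *Stag3* were lower in d4 EpiLCs, against 1.12% of named genes, and *Sycp3* was higher, against 2.18%. *Hormad1*, which encodes an axis protein that guards unpaired chromosomes, read 3.15 in ESCs, 2.76 in d2 EpiLCs, 1.39 in d4 EpiLCs, 2.45 in EpiLCs + PRDM14, and 2.64 and 1.86 in the arrays labelled KD. The d4 EpiLCs were 2.58-fold below d2 EpiLCs, and EpiLCs + PRDM14 were 2.08-fold above d4 EpiLCs.

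*Smc1b*, the meiotic form of a cohesin ring subunit, was level in ESCs (1.25) and d2 EpiLCs (1.29), and lower in d4 EpiLCs (0.26) with EpiLCs + PRDM14 between them (0.70). Its KD-labelled arrays were at 1.27 and 1.00. *Stag3*, the meiotic cohesin subunit that binds the ring, also had its lowest levels outside the KD in d4 EpiLCs and then EpiLCs + PRDM14, with 1.58 in ESCs, 1.27 in d2 EpiLCs, 0.41 in d4 EpiLCs and 0.87 in EpiLCs + PRDM14. On the KD-labelled arrays it was at 1.45 at day 2 and 0.34 with PRDM14, a difference of -1.12 against -0.40 in the scramble pair. For each of the 7 members lower in d4 EpiLCs, EpiLCs + PRDM14 read above d4 EpiLCs, by 0.26 to 1.51, and 3 of the 7 passed 1.5-fold. These genes were chosen on the d4 array, which is in both differences.

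*Sycp3*, which encodes a main protein of the chromosome axis, was at 2.71 in ESCs, 2.02 in d2 EpiLCs, 2.65 in d4 EpiLCs and 2.38 in EpiLCs + PRDM14, and at 1.36 and 1.55 in the arrays labelled KD. Both KD-labelled arrays were below all the others. *Hormad2*, a second HORMA domain axis gene, was dim, at -0.52 in ESCs, -0.32 in d2 EpiLCs, -0.52 in d4 EpiLCs, -0.20 in EpiLCs + PRDM14, and -0.75 and -1.06 on the KD-labelled arrays. *Rec8*, the meiotic kleisin gene (0.23 to 0.73), and *Sycp2*, the gene of an axis partner of SYCP3 (-1.76 to -1.53), were within 1.5-fold everywhere. The median difference of the 7 axis and cohesin genes was -0.20 for d4 minus d2 EpiLCs and 0.32 for EpiLCs + PRDM14 minus d4 EpiLCs.

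**Figure D3:**
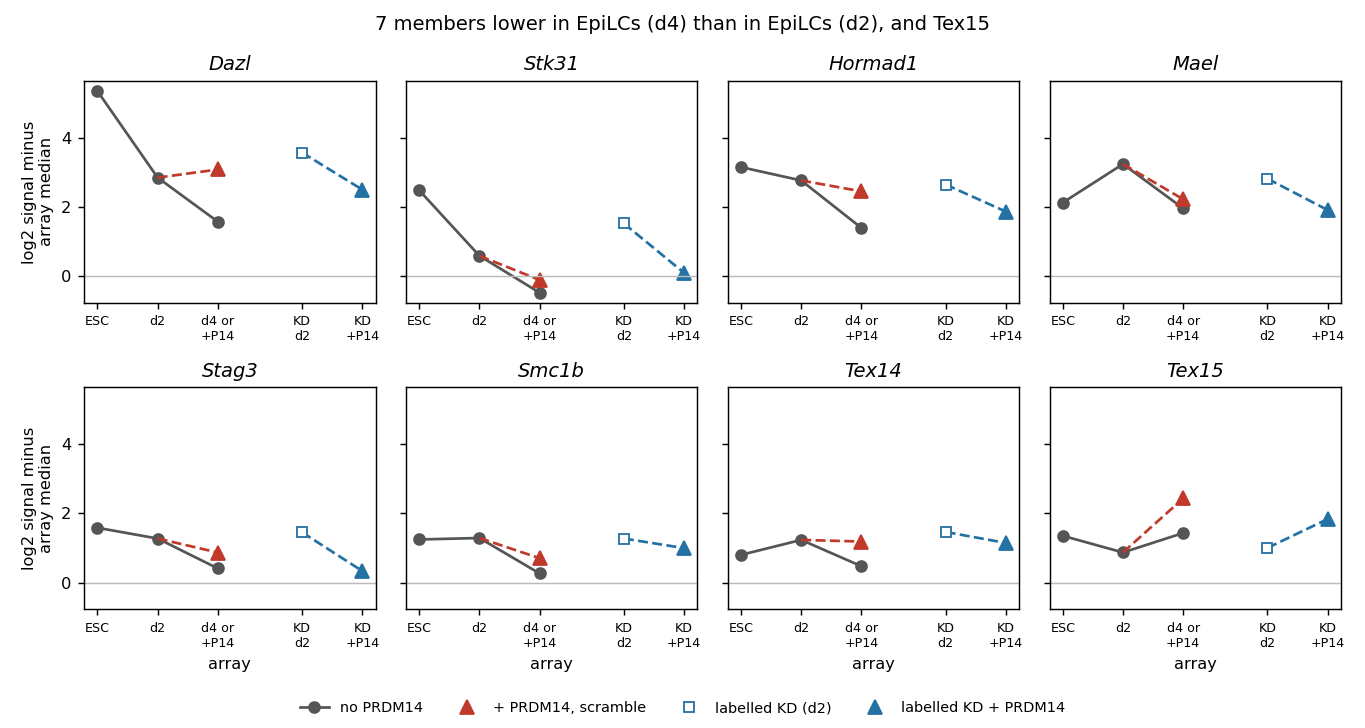
Level (log2 signal minus array median) of *Tex15* and the 7 members lower in d4 EpiLCs, on each of the 6 arrays. Grey circles are ESCs, d2 EpiLCs and d4 EpiLCs, the red triangle is EpiLCs + PRDM14, and blue symbols are the arrays labelled KD (square, day 2; triangle, with PRDM14). In all 8 panels the red triangle lies above the grey circle of day 4, as for *Dazl* (3.08 and 1.57), and in each panel but *Tex15* the blue line goes down. The 7 genes were chosen for a low level on the day 4 array, which favours a higher red triangle. Of all 40 members 75%, and of named genes 50.6%, read higher in EpiLCs + PRDM14 than in d4 EpiLCs.

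Of the synaptonemal complex centre, *Syce1*, *Syce2* and *Tex12* were measured, and all lay above the median in every array. *Syce1*, which encodes a central element protein, was at 1.84 in ESCs and between 0.85 and 1.19 in the 5 EpiLC arrays. *Syce2*, the gene of another central element protein, was at 4.74 in ESCs, 5.20 in d2 EpiLCs, 4.65 in d4 EpiLCs and 4.82 in EpiLCs + PRDM14. Its KD-labelled arrays were at 5.08 and 4.39, and this difference of -0.69 passed the threshold where that of -0.37 in the scramble pair did not. *Tex12*, whose protein binds SYCE2, lay between 0.53 and 1.12 and was called nowhere.

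Among 9 genes of meiotic recombination, *Tex15* was the 1 called with PRDM14 in the scramble pair, against 4.63% of named genes. *Tex15*, needed for break repair in meiosis and for transposon silencing in the male germline, was at 1.35 in ESCs, 0.87 in d2 EpiLCs, 1.43 in d4 EpiLCs and 2.43 in EpiLCs + PRDM14. On the KD-labelled arrays it was at 1.00 at day 2 and 1.83 with PRDM14. EpiLCs + PRDM14 were thus above every other array, 2.95-fold above d2 EpiLCs and 2.00-fold above d4 EpiLCs, and also above ESCs. In the pair labelled KD the difference was 1.78-fold.

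Of the genes for the break-making and strand exchange steps, *Spo11*, *Dmc1*, *Mei1* and *Mei4*, the last was the 1 called in any comparison. *Spo11*, the gene of the enzyme that cuts the DNA, lay between 0.29 and 0.47 in all arrays, and *Dmc1*, the strand exchange gene, between -0.10 and 0.52. *Dmc1* was lower by 0.47 with PRDM14 in the scramble pair at the probe set used here, while a further one gave -0.71. *Mei4*, a partner of SPO11, was at 0.05 in d2 EpiLCs and 0.61 in EpiLCs + PRDM14, a difference of 0.56 that was short of the threshold. In ESCs it was at -0.42, in d4 EpiLCs at 0.32, and on the KD-labelled arrays at 0.17 and -0.10, so its range over the arrays was 1.04. *Mlh3*, which encodes a crossover endonuclease subunit, was between 1.38 and 1.59 in 5 arrays and at 0.90 in the KD-labelled array with PRDM14. Within 1.5-fold in all 7 comparisons were *Mei1*, a gene of break formation (-0.24 to 0.09), the MutS homologue genes of crossover formation *Msh4* (-1.19 to -0.66) and *Msh5* (0.42 to 0.59), and the X-linked *Tex11* (-0.97 to -0.66). In all, 19 members were called in no comparison and 21 (52.5%) in at least 1 of the 7, against 16.7% of named genes. The share of the members comes from a list chosen with earlier results of these data known.

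The arrays labelled KD were then set against their scramble counterparts. At day 2, *Stk31* (0.93) and *Dazl* (0.72) were higher (5%), against 3.3% of named genes, and *Dmrt1* (-1.03) and *Sycp3* (-0.66) were lower (5%), against 2.25%. The second probe set of *Stk31* gave 1.30, and that of *Dazl* -0.09. With PRDM14, *Ddx4* (1.03) was the 1 member higher (2.5%), against 3.58%, and *Hormad2* (-0.87), *Sycp3* (-0.83), *Mei4* (-0.71), *Mlh3* (-0.68) and *Tex15* (-0.60) were lower (12.5%), against 3.38%. The median differences were 0.07 and -0.10. Markers of naive ESCs also differed at day 2, where 3 of 6 were higher in the KD-labelled array and their summed linear level was 94.4 against 61.3. The 3 measured markers of 2-cell-like cells were all higher in both KD-labelled arrays, with summed levels of 7.56 against 2.84 at day 2 and 27.7 against 10.7 with PRDM14. Of the 6 trophoblast markers, *Krt8* was higher in both KD-labelled arrays (1.44 and 1.85) and *Krt7* in the one with PRDM14 (1.15). *Cdx2*, *Elf5*, *Eomes* and *Hand1* were within 1.5-fold in both. The summed trophoblast levels were 21.7 against 13.3 at day 2 and 38.6 against 16.3 with PRDM14. Of the primed epiblast markers, *Zic2* was lower in both (-1.25 and -1.13), *Otx2* was lower with PRDM14 (-0.91), and none was higher. Across all 6 arrays, naive markers ranged from 61.3 to 205.4, 2-cell-like markers from 2.06 to 27.7 and trophoblast markers from 13.3 to 38.6. Their part in the members' differences was not tested. In whole cultures, fewer cells that express a gene and less RNA per cell cannot be told apart.

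**Figure D4:**
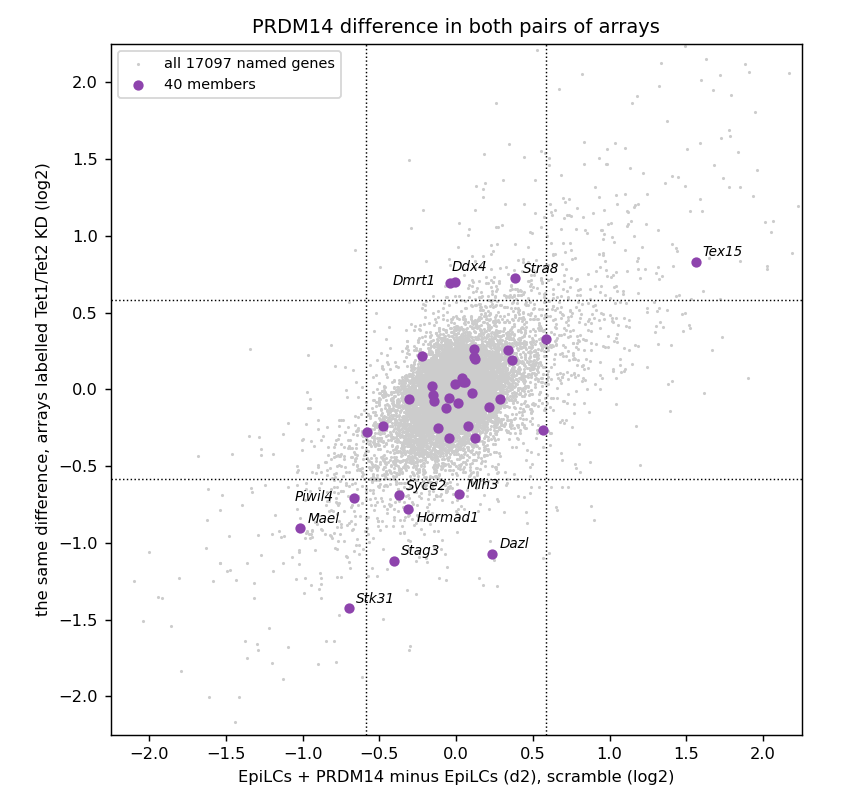
Difference with PRDM14 in the scramble pair (x axis, log2) and in the KD-labelled pair (y axis, log2) for all 17097 named genes (grey) and the 40 members (purple), with dotted lines at 1.5-fold and 35 genes outside the axes. *Tex15* is at the upper right (1.56 and 0.83), *Mael*, *Stk31* and *Piwil4* are at the lower left, and *Dazl* has opposite signs (0.23 and -1.07).

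Other genes of the same pathways were counted in the same way. For all lists that follow, the share of named genes called in each comparison is the one given with the members. Of 11 measured further piRNA genes, 4 were lower in d4 EpiLCs than in d2 EpiLCs, against 1.12% of named genes, with no gene higher and a median of -0.26. They were *Gpat2* (-1.26), a mitochondrial acyltransferase gene needed for piRNA production, *Morc1* (-0.99), a transposon silencing gene, *Rnf17* (-0.94) and *Tdrd12* (-0.83), both tudor domain genes. With PRDM14, 1 of the 11 was lower in the scramble pair (*Gpat2*, -0.85) and 3 in the KD-labelled pair (*Gpat2*, -0.94, *Morc1*, -0.77, and *Tdrd12*, -0.73). *Morc1* was higher in EpiLCs + PRDM14 than in d4 EpiLCs by 0.80. *Rnf17* was higher in ESCs (0.60), and *Pld6*, which encodes a mitochondrial nuclease of piRNA production, was higher in the KD-labelled than in the scramble arrays, by 1.07 at day 2 and 0.64 with PRDM14.

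Of 16 measured further meiosis genes, 2 were lower in d4 EpiLCs, against 1.12% of named genes. They were *Rec114* (-1.61), a partner of MEI4, and *Meioc* (-1.14), which keeps germ cells in meiosis. *Rec114* was at 3.26 in ESCs, 2.96 in d2 EpiLCs, 1.36 in d4 EpiLCs and 2.18 in EpiLCs + PRDM14. *Meioc* resembled *Mael* in that d2 EpiLCs were highest, with 0.54 in ESCs, 2.01 in d2 EpiLCs, 0.86 in d4 EpiLCs and 0.65 in EpiLCs + PRDM14. Both were lower with PRDM14 in the scramble pair (-0.78 and -1.36) and also in the KD-labelled pair (-0.81 and -1.75), where *Ythdc2*, the partner of MEIOC, was lower too (-0.68). Against d4 EpiLCs, *Rec114* (0.83) and *Sun1* (0.73), which helps to tether chromosome ends to the nuclear envelope, were higher in EpiLCs + PRDM14 and *Ythdc2* was lower (-0.73). *Meioc* was also lower in ESCs (-1.46) and in the KD-labelled arrays than in their scramble counterparts (-0.61 at day 2 and 2.00-fold with PRDM14), and *Terb2*, a telomere attachment gene, was lower in the latter pair (-0.68).

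Genes of early primordial germ cells, the founders of the germline, are given beside the members. Of 10 measured, 7 were higher with PRDM14 in the scramble pair, against 2.72% of named genes, and no gene was lower, at a median of 1.09. Of the 40 members, 1 was higher and 3 were lower there, with a median of 0.00. Against d4 EpiLCs, which share the medium, 4 of the 10 were higher and none was lower, at a median of 0.08, and 4 were already higher in d4 than in d2 EpiLCs. The 4 with the largest differences from d2 EpiLCs were *Tfap2c* (1.98), *Dppa3* (1.91), *Ifitm3* (1.78) and *Rhox6* (1.39). Higher in d4 than in d2 EpiLCs were *Rhox6* (2.82-fold), *Tfap2c* (1.26), *Rhox9* (1.19) and *Ifitm1* (1.18), and higher with PRDM14 than in d4 EpiLCs were *Dppa3* (1.56), *Ifitm3* (1.21), *Kit* (0.93) and *Tfap2c* (0.73), whereas *Rhox6* differed there by -0.11. In the KD-labelled pair 5 of the 10 were higher, led by *Rhox9* (3.01), *Rhox6* (3.01), *Tfap2c* (2.90) and *Dppa3* (2.07). In ESCs *Prdm14* (1.91), *Kit* (1.77) and *Ifitm3* (0.81) were higher than in d2 EpiLCs and *Dppa3* was lower (-0.78). *Rhox9* was higher in the KD-labelled than in the scramble d2 EpiLCs (0.80), and with PRDM14 *Rhox9* (2.72), *Rhox6* (2.14) and *Tfap2c* (0.72) were higher and *Ifitm1* lower (-1.49). The germ cell specification gene *Prdm1* differed by 0.13 with PRDM14 in the scramble pair and *Dnd1* by 0.12.

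Genes of the repressors known to act on germline promoters were also measured. Of 8 DNA methylation genes, 4 were lower with PRDM14 in the scramble pair, against 1.91% of named genes. They were *Dnmt3b* (-2.10), *Dnmt3l* (-1.02), *Dnmt3a* (-0.79) and *Uhrf1* (-0.66). In the KD-labelled pair 6 were lower, against 2.53%, led by *Dnmt3b* (-1.25), *Dnmt3l* (-1.14), *Uhrf1* (-1.05) and *Dnmt3a* (-1.03). Against d4 EpiLCs, which share the medium, 2 of the 8 were lower with PRDM14, *Dnmt3b* (-2.33) and *Dnmt3l* (-0.67), and *Dnmt3a* (-0.39) and *Uhrf1* (-0.33) were within 1.5-fold. Between d4 and d2 EpiLCs none of the 8 was called, at a median of -0.20, with *Dnmt3a* at -0.40, *Uhrf1* at -0.34 and *Dnmt3b* at 0.24. In ESCs *Dnmt3a* (-1.58) and *Dnmt3b* (-1.14) were lower than in d2 EpiLCs. Against the scramble arrays, *Tet3* was higher in both KD-labelled arrays (0.70 and 0.69) and *Dnmt3a* was lower in the one with PRDM14 (-0.66).

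Of 12 genes of the E2F6-MGA polycomb complex and H3K9 methylation, none was called with PRDM14 in the scramble pair, against d4 EpiLCs, or between d4 and d2 EpiLCs. In the KD-labelled pair 11 of the 12 lay below 0, at a median of -0.31, where 53.2% of named genes did, at a median of -0.01. In the scramble pair 9 of the 12 lay below 0, at a median of -0.12, and 52.8% of named genes did. *Ehmt2*, an H3K9 methyltransferase gene, was the 1 called lower in the KD-labelled pair (-0.88). *Ehmt2* was higher in the KD-labelled than in the scramble d2 EpiLCs (0.59), and *Mga* was lower in the KD-labelled than in the scramble array with PRDM14 (-0.79). *Tfdp1*, which encodes a partner of E2F proteins, was lower in ESCs (-0.77). *E2f6* differed by -0.13 with PRDM14 in the scramble pair, and *Mga* by 0.14.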

How the data were processed

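Transcript levels were measured on 6 Affymetrix MG-430 PM strips of the GeneAtlas system after labelling with the GeneChip 3' IVT Express Kit, 1 array per condition. The authors normalized the scans with the default robust multi-array average and deposited log2 signals. The submitters' processing notes name the Affymetrix Expression Console, with no version in the sources used here. The number of arrays limits the precision, and no columns of other samples were present. Of 45141 probe sets, 104 controls were left out, and the platform annotation, which is old, gives 1 symbol to 28898, several to 551 and none to 15588 of the rest. All 40 measured members matched the RefSeq symbol by Entrez identifier.

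Each array was shifted by its median, the brightest of a gene's probe sets over the 6 arrays stood for the gene, and 7 pairs of arrays were compared over 17097 named genes at a 1.5-fold threshold. All members past the threshold are named, and of the pathway lists those past it, at most the 4 with the largest difference in each comparison. *Prdm1*, *Dnd1*, *Tdrd5*, *Smc1b*, *E2f6*, *Mga*, *Prdm14*, *Tet2* and some markers are given besides, for their role or because they lie near the threshold. The members and lists were chosen with earlier results of these data known. Alternatives were a 2-fold threshold, the mean of all probe sets, a filter on dim genes, quantile normalization and the values as deposited. Promoters were searched in RefSeq sequences of GRCm38.p6. Python 3.11.15, pandas 2.3.3, numpy 2.4.6 and matplotlib 3.10.9 were used, and the calling step was tested on simulated data.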

Additional observations from a re-analysis of the deposited data

Results flagged for a closer look

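The difference with PRDM14 changed its sign between the scramble arrays and those labelled *Tet1*/*Tet2* KD and was past 1.5-fold in at least 1 of the pairs for 4 members (10%), against 0.696% of named genes. With 1 array per condition, none of these differences was tested. For *Dazl* the difference in the KD-labelled pair minus that in the scramble pair was -1.30, from 0.23 and -1.07, and the second probe set gave 0.09 and -0.28. For *Mlh3* it was -0.70, from 0.02 and -0.68. *Dmrt1* and *Ddx4* went the other way, with 0.73 (from -0.04 and 0.69) and 0.71 (from -0.01 and 0.70). In the scramble pair all 4 were within 1.5-fold, and for *Ddx4*, *Mlh3* and *Dmrt1* the value there was so near 0 that its sign has little meaning. By size alone, the differences in the pairs lay at least 1.5-fold apart for 8 members (20%), against 3.25% of named genes. The other four were *Mei4* (-0.83, from 0.56 and -0.27), *Stk31* (-0.73), *Tex15* (-0.73) and *Stag3* (-0.71), all but *Mei4* with the same sign in both pairs.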

How the results depend on the processing

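Under a 2-fold threshold the counts of called members fell from 4 to 2 for EpiLCs + PRDM14 minus d2 EpiLCs, from 10 to 4 for ESCs, from 8 to 5 for d4 EpiLCs and from 5 to 2 for EpiLCs + PRDM14 minus d4 EpiLCs. They fell from 12 to 3 in the KD-labelled pair, from 4 to 1 for the KD-labelled against the scramble d2 EpiLCs, and from 6 to 1 for the same with PRDM14, by the construction of the threshold. With the values as deposited the last 2 counts became 8 (1 higher, 7 lower) and 10 (1 higher, 9 lower), because the lower medians of the arrays labelled KD stay in the values. The other counts stayed within 1.5 times under the mean of all probe sets, the filter on dim genes, quantile normalization and the values as deposited, and no call changed its direction. Of 49 single calls, 44 passed with the mean of all probe sets, 48 with quantile normalization and 48 with the values as deposited; the filter removed 6 and left 43. No paired analysis was possible because each condition has 1 array, and for the same reason no replicate could be left out. Members near the background of the array have differences that the dim signal limits.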
